A study of Rattus norvegicus with 19 samples.

Results

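Radiation-induced mammary carcinomas of female rats were chosen by the level of 6 mitotic RNAs, and the 6 carcinomas with the highest levels, called fast-cycling here, were compared with the 6 with the lowest, called slow-cycling. The 6 genes were Cdk1, Ccnb1, Bub1, Birc5, Cdc20 and Aurka. Each was centred on its mean over the 13 carcinomas, and their average is the score of a carcinoma. The 2 groups hold 12 of the 13 carcinomas and 12 of the 19 samples in the study, since the carcinoma with the median score was left out. The names refer to RNA levels alone, because no rate of cell division was measured. The groups were made from the expression values themselves, so the 6 genes are described without a test.

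All 19 samples came from female F1 hybrids of Sprague-Dawley and Copenhagen rats. The study held 13 mammary carcinomas and 6 normal mammary glands, measured on 1 single-colour (Cy3) Agilent array each. Whole-body gamma irradiation with 4 Gy at 0.5 Gy/min was given at 7 weeks of age, while other rats stayed untreated, and the carcinomas are labelled as radiation-induced. Fast-cycling, slow-cycling and left-out carcinomas share that description, and the labels of normal glands do not say whether the rat was irradiated. Age at sampling is not given, nor whether 2 carcinomas came from the same rat, so a p-value here measures only the spread between these samples.

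Cdk1, the kinase that drives entry into mitosis, acts with cyclin B1, the product of Ccnb1. Bub1 is a kinase of the spindle checkpoint, Cdc20 activates the ubiquitin ligase that ends mitosis, Birc5 encodes survivin of the chromosomal passenger complex, and Aurka is a centrosome kinase. RNAs of this class build up late in the cell cycle, through promoters that often carry a cell cycle homology region (CHR) and CCAAT boxes, bound by the DREAM and MYB-MuvB complexes and by NF-Y. Genes of DNA replication are instead switched on earlier, many of them by E2F factors. In a bulk sample, fewer dividing cells and less of such RNA per dividing cell cannot be told apart.

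These 2 kinds of promoter are shown for genes of the score and of replication. Each is the 300 bases from 250 before to 50 after the start in RefSeq (build GRCr8), read 5′ to 3′ on the gene's strand. Capitals mark, on either strand, the CHR letters TTTGAA, the CCAAT letters, or an E2F site (TTTCGCGC, TTTGGCGC or TTTCCCGC). Cdk1, Cdc20 and Ccnb1 are score genes, and Mcm2 and Mcm3 encode subunits of the replicative helicase.
Cdk1, chr20:19265043-19265342, plus strand: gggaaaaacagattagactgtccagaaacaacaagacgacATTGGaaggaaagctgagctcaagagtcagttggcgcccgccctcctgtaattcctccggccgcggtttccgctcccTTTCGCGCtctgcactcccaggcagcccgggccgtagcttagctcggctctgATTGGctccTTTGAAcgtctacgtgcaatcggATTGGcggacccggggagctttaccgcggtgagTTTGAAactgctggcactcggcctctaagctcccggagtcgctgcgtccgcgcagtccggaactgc
Cdc20, chr5:137255750-137256049, minus strand: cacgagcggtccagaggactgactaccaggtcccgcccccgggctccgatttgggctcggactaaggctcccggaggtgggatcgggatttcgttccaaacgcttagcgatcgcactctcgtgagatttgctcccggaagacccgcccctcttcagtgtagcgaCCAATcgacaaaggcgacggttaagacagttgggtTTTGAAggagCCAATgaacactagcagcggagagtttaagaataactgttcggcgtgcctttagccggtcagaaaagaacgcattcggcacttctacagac
Ccnb1, chr2:33655176-33655475, minus strand: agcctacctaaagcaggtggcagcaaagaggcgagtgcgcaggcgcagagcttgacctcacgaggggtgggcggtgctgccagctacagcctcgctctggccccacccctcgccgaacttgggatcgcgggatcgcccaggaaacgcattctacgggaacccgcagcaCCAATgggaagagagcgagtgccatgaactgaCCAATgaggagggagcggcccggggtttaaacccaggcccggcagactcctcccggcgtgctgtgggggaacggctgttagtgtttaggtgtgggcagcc
Mcm2, chr4:122918045-122918344, minus strand: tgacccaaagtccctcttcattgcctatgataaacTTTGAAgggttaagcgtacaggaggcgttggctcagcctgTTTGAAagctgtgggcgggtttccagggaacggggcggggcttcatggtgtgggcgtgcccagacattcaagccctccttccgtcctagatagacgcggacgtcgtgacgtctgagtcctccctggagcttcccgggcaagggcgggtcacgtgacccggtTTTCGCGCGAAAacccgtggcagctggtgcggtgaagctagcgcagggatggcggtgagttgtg
Mcm3, chr9:30733697-30733996, minus strand: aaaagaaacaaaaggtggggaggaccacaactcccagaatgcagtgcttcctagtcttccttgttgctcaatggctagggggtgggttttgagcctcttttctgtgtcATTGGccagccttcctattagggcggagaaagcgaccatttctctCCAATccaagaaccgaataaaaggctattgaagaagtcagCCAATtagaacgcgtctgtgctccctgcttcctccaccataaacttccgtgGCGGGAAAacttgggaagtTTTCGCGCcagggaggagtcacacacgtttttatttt
The Cdk1 window held 2 CHR matches, 3 CCAAT matches and 1 E2F match, and the Cdc20 window held 1 CHR and 2 CCAAT matches. Ccnb1 showed 2 CCAAT matches in its window and no CHR letters. The Mcm2 window held 2 CHR matches, and 2 E2F matches on opposite strands overlapped to form 1 run of capitals near the start, while Mcm3 held 2 separate E2F matches and 3 CCAAT matches. Across the lists of this report, CHR letters stood in 68.2% of 22 promoters of mitotic cyclin, kinase and checkpoint genes, 67.4% of 43 kinesin, spindle and kinetochore genes and 69.2% of 13 condensin and chromosome structure genes. The share was 26.7% of 15 replication licensing genes and 12.1% of 33 replication fork and nucleotide supply genes. Over all 27457 promoters in the RefSeq table it was 18.1%, and over the 10283 promoters matched to genes tested it was 12.9%. E2F sites ran the other way: they stood in 60.0% of licensing and 36.4% of fork promoters, against 0.0% of mitotic, 2.33% of kinesin and 7.69% of condensin promoters, 1.82% of all promoters and 3.05% of promoters of genes tested. CCAAT letters were present in 72.7% of mitotic, 67.4% of kinesin, 73.3% of licensing and 51.5% of fork promoters, and in 37.7% of all promoters. Of the 6 score genes, 3 held CHR letters, 4 held CCAAT letters and 1 held an E2F site, and the windows of Bub1 and Aurka held none of the 3. A match is a description of these letters and says nothing about binding in the carcinomas.

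Cdk1 had a lowest, median and highest value of 1.43, 2.77 and 3.12 in fast-cycling carcinomas, against -0.15, 0.63 and 1.75 in slow-cycling carcinomas and -0.60, 0.31 and 1.59 in normal glands. These levels are log2 intensities relative to the array's 75th percentile, and a level of 1 probe is not comparable with that of another. Ccnb1 stood at -1.29, -0.44 and 0.50 in fast-cycling carcinomas, against -3.02, -2.32 and -1.48 in slow-cycling ones. The lowest fast-cycling carcinoma lay above the highest slow-cycling one for Ccnb1, Cdc20 and Aurka, whereas 1 slow-cycling carcinoma reached into the fast-cycling range for Cdk1 and for Bub1, and 2 did for Birc5. Aurka was the most even of the 6 among fast-cycling carcinomas, with 1.11, 1.26 and 1.37 there, against -0.71, -0.15 and 0.21 in slow-cycling carcinomas. Differences of the means, given as a description, ran between 1.49 (Aurka) and 1.88 (Cdk1) on the log2 scale.

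The score itself formed a gradient rather than 2 separate clusters. Fast-cycling carcinomas 9, 10, 11, 2, 7 and 6 scored 1.42, 1.19, 1.02, 0.84, 0.53 and 0.16, against -0.03, -0.32, -0.85, -0.97, -1.44 and -1.57 for slow-cycling carcinomas 5, 8, 3, 12, 13 and 1. Carcinoma 4, left out, scored 0.03, so carcinomas 6, 4 and 5 lie close together at the border. On the same scale the normal glands scored between -2.22 and -0.22, a range that overlapped the slow-cycling carcinomas. Leaving out Cdk1, Bub1, Birc5 or Cdc20 from the score kept all 12 carcinomas in their groups. Without Ccnb1, carcinoma 4 took the place of carcinoma 5 among the slow-cycling ones, and without Aurka, or with all genes of the cell cycle lists, carcinomas 5 and 6 changed places.

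**Figure D1:**
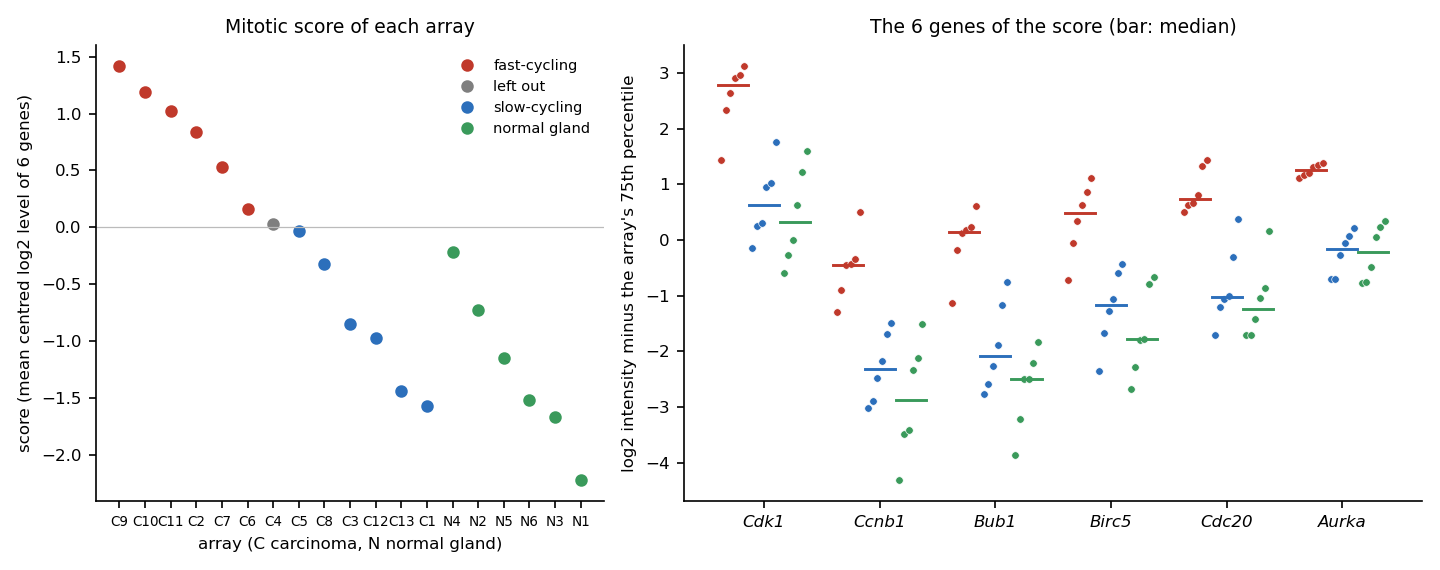
Left, the score of each array (mean centred log2 level of 6 genes), with fast-cycling carcinomas in red, the left-out carcinoma in grey, slow-cycling carcinomas in blue and normal glands in green. Right, the log2 level of each score gene by array, with a bar at the median: all 6 Aurka values of fast-cycling carcinomas, 1.11 to 1.37, lie above the slow-cycling values, which end at 0.21.

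Epithelial identity was present in both groups: Krt8, Krt18, Krt19, Epcam, Cdh1, Gata3 and Elf5 were well above background on 6 of 6 fast-cycling and 6 of 6 slow-cycling arrays. Array brightness, the 75th percentile of intensity, had a lowest, median and highest value of 485, 888 and 1428 on fast-cycling arrays, 888, 1200 and 1313 on slow-cycling arrays and 295.5, 461 and 673 on normal gland arrays. Its log2 difference of -0.36 between fast-cycling and slow-cycling arrays had p = 0.158 in an exact permutation test (2-sided, all 924 ways to split the arrays), or 0.316 adjusted over 4 array measures. Marked spots, those called uneven or outlying by the scanner software, numbered 472 to 674 on fast-cycling and 644 to 1069 on slow-cycling arrays (exact permutation p = 0.013, adjusted 0.0519). Batches were uneven: slide 1 held 1 fast-cycling and 3 slow-cycling carcinomas, slide 2 held 3 fast-cycling ones and no slow-cycling one, and slide 3 held 2 fast-cycling and 3 slow-cycling ones. Slide 2 was also the only one read on the second scan day, so values from scan day 1 alone, 3 fast-cycling against 6 slow-cycling carcinomas, stand beside results below.

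Outside the score genes, no gene passed the test between the 2 groups. Of 12592 genes tested by limma, 0 were higher and 0 were lower in fast-cycling carcinomas at an adjusted p under 0.05 (0.0% each way), and the lowest adjusted p was 0.119. At an unadjusted p under 0.05, 840 genes stood higher (6.67%) and 399 lower (3.17%). Groups did not overlap for 92 genes that were higher (0.731%) and 20 that were lower (0.159%) in fast-cycling carcinomas, and 1 of these 112 genes lacked a value on 1 array. Over all genes the median difference was 0.07 on the log2 scale, and 56.8% of differences were above 0. Data were also simulated for the same group sizes and 12534 genes, with noise drawn independently for each gene. There the test recovered 28% of 100 genes that differed by 1 log2 unit and 72% of 100 that differed by 2. Recovery where genes vary together was not tested. Values below are therefore given as levels and differences with their standard errors, and none of them passed this test.

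**Figure D2:**
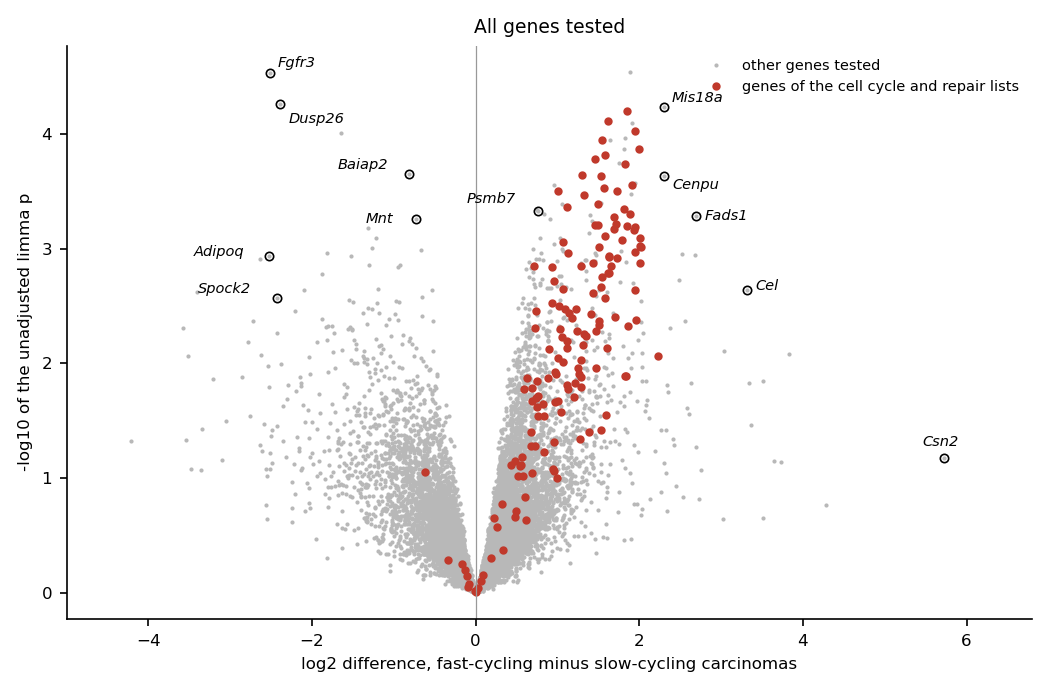
Each point is 1 of the 12592 genes tested, with the log2 difference, fast-cycling minus slow-cycling carcinomas, on the horizontal axis and -log10 of the unadjusted limma p on the vertical axis. Of the tested genes in cell cycle lists (red, with repair genes), 122 of 127 lie right of 0, and Fgfr3, at a difference of -2.52, stands highest on the left.

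Genes of the mitotic apparatus stood higher in fast-cycling carcinomas almost without exception. Since the score is made of genes of the same programme, this says how closely the carcinomas' RNAs keep together and supports nothing further. Among mitotic cyclins, kinases and checkpoint genes, 25 of 30 were tested, 24 had a difference above 0, and the median difference was 1.54 (2.9-fold). Groups did not overlap for 7 of them, beside 0.731% of all genes tested, and on scan day 1 alone the median was 1.45. Mad2l1, a spindle checkpoint protein that binds Cdc20, had a lowest, median and highest level of -1.77, -0.97 and -0.52 in fast-cycling carcinomas, against -3.21, -2.71 and -1.91 in slow-cycling carcinomas, a difference of 1.62 ± 0.29 (SE, n = 6 each). Ube2c, the ubiquitin-conjugating enzyme that works with the ligase Cdc20 activates, stood at 0.55, 0.80 and 1.38 against -2.17, -0.66 and -0.23 in slow-cycling carcinomas, where carcinoma 12 has no value, so that the lack of overlap rests on 5 slow-cycling carcinomas. Cyclin A2 (Ccna2) differed by 2.01 ± 0.46, with 1 slow-cycling carcinoma at 0.11 just inside the fast-cycling range that starts at 0.09. Wee1, the kinase that holds Cdk1 inactive, had a difference of -0.08 and was the only 1 of the 25 below 0. On scan day 1 alone all 25, Wee1 included, were above 0.

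Kinesins, spindle and kinetochore genes showed the same picture: 34 of 46 were tested and all 34 were above 0. The median difference was 1.58 (3-fold), or 1.65 on scan day 1 alone. Groups did not overlap for 9 of them, beside 0.731% of all genes tested. Ska1, part of the complex that couples kinetochores to microtubules, stood at -2.61, -1.81 and -1.35 in fast-cycling carcinomas, against -4.80, -3.62 and -3.24 in slow-cycling carcinomas. Kif20a, a kinesin of cytokinesis, differed by 1.82 ± 0.35 and its groups did not overlap. Nusap1, a spindle microtubule protein, differed by 1.86 ± 0.32, although 1 slow-cycling value of -0.34 lay above the lowest fast-cycling value of -0.53. Of 13 condensin and chromosome structure genes, 6 were tested and 5 were above 0, among them the condensin subunits Smc4 (0.94 ± 0.26) and Ncapd3 (1.03 ± 0.30). Lamin B1 (Lmnb1) was the exception at -0.10.

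Replication genes stood higher as well, by smaller amounts. Among replication licensing genes 18 of 19 were tested, 17 were above 0 and the median difference was 1.20 (2.29-fold). Mcm2, whose promoter is shown above, had levels of -0.64, 0.18 and 0.66 in fast-cycling carcinomas, against -2.25, -0.86 and 0.27 in slow-cycling carcinomas, so the groups overlapped (difference 1.11 ± 0.40, adjusted p = 0.38). Dbf4, which activates the kinase that fires origins, did not overlap, with -3.92 to -3.14 in fast-cycling and -5.33 to -3.96 in slow-cycling carcinomas. The Dbf4 difference of 1.30 was 0.79 with normexp, a model-based background correction used as an alternative. Its partner kinase Cdc7 was the only licensing gene below 0, at -0.34, with 0.34 on scan day 1 alone and 0.05 with normexp. Of 37 replication fork and nucleotide supply genes 31 were tested, 30 were above 0 and the median was 0.94. Pcna, the sliding clamp of the polymerases, differed by 1.33 ± 0.28, the histone chaperone Asf1b by 2.01 ± 0.47 and the polymerase subunit Pole by 1.70. With normexp Asf1b was 1.30 and Pole 0.91. Rfc1 was the exception at -0.10, with 0.29 on scan day 1 alone.

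Regulators of these genes stood higher as well. Of 13 tested genes of the E2F, MYB and FOXM1 list 12 were above 0, with a median of 0.76. Cyclin E1 (Ccne1), which starts S phase, differed by 2.01 ± 0.49, E2f1 by 1.55 ± 0.40, and Mybl2, the MYB member of the complex at CHR promoters, by 1.47 ± 0.44. Foxm1, its partner in G2, differed by 0.76 ± 0.29, with levels of -1.24, -0.81 and -0.23 in fast-cycling carcinomas, against -2.26, -1.38 and -0.89 in slow-cycling ones. Homologous recombination and fork repair genes had a median difference of 0.96, with 22 of 25 above 0. Brca1 differed by 1.07 ± 0.35 (0.51 with normexp) on a probe well above background on 5 fast-cycling and 4 slow-cycling arrays, and Brca2 by 0.55 ± 0.29. The damage sensor kinase Atm stood at -0.61, or -0.04 with normexp.

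Among the 100 genes with the smallest unadjusted p, the 10 largest non-overlapping differences on the higher side outside the cell cycle and repair lists (background 0.731%) included 4 genes of the centromere. Cenpu, a subunit of the inner kinetochore, had levels of -3.25, -1.99 and -0.41 in fast-cycling carcinomas, against -4.62, -4.04 and -3.29 in slow-cycling carcinomas and -4.28, -3.30 and -2.66 in normal glands. Mis18a, needed to load the centromeric histone, stood at -2.19, -1.31 and -0.77 against -4.86, -3.78 and -2.36 in slow-cycling carcinomas. The differences were 2.31 ± 0.46 and 2.30 ± 0.39, about 4.95-fold and 4.91-fold, with adjusted p of 0.13 and 0.12. Cenpt (1.91 ± 0.34) and Cenpi (1.83 ± 0.34) are further inner kinetochore subunits, and the Cenpi probe was well above background on 4 fast-cycling arrays and 1 slow-cycling array. The others were Lrr1 (1.95), which helps to unload the replicative helicase, Parpbp (1.89), a PCNA-binding inhibitor of recombination, the spindle protein Knstrn (1.64), and Fam72a (1.84), 2610318N02Rikl (1.69) and Sapcd2 (1.54). None of these 10 differences changed sign under any of the 33 settings of the sensitivity analysis. They were chosen for lack of overlap, which fixes the sign in any fit without covariates on part of the same 2 groups. All 10 were smaller after normexp background correction. The centromere genes then stood at 1.69 (Cenpu), 1.72 (Mis18a), 1.32 (Cenpt) and 0.73 (Cenpi). The others were 0.86 for Lrr1, 1.21 for Parpbp, 1.54 for Knstrn, 0.98 for Fam72a, 0.92 for 2610318N02Rikl and 1.42 for Sapcd2.

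With the score as a continuous term over all 13 carcinomas, limma called 140 genes with a positive slope (1.11%) and 2 with a negative slope (0.0159%). Of the 142, 78 stood in cell cycle lists, 85 in those or the repair list, and 55 in no list. Those cell cycle lists held 127 of the 12592 genes tested. The score is made of mitotic genes, so calls among genes of the same programme were built in and support nothing further. Genes in no list include Mis18a and Cenpu, of the centromere. Genes most like the score over the 13 carcinomas were Mad2l1 (Pearson r = 0.976), Aspm, a spindle pole protein (0.973), Ska1 (0.972), Cdca3 (0.971), Cenpi (0.970), Kif18b (0.968), Ccna2 (0.967), Ube2t (0.967), Knstrn (0.966) and Mis18a (0.964). These correlations describe arrays that also share their scaling, and carry no p. The negative slopes belonged to Spock2, a matrix proteoglycan, at -1.43 per unit of score (adjusted p = 0.04), and Slco5a1, an orphan transporter, at -1.29 (adjusted p = 0.0266). Slco5a1 had levels of -5.89, -4.51 and -3.18 in fast-cycling carcinomas, against -5.10, -2.34 and -0.42 in slow-cycling carcinomas, and was well above background on 4 of the fast-cycling arrays. Least like the score were Bbc3 (r = -0.840), which encodes the pro-apoptotic protein PUMA, Lzts2 (-0.823), the cofilin phosphatase gene Ssh3 (-0.806), Slco5a1 (-0.805) and Ypel3 (-0.804). A second Lzts2 probe differed by -0.09 between the groups, against -0.47 for the probe used.

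**Figure D3:**
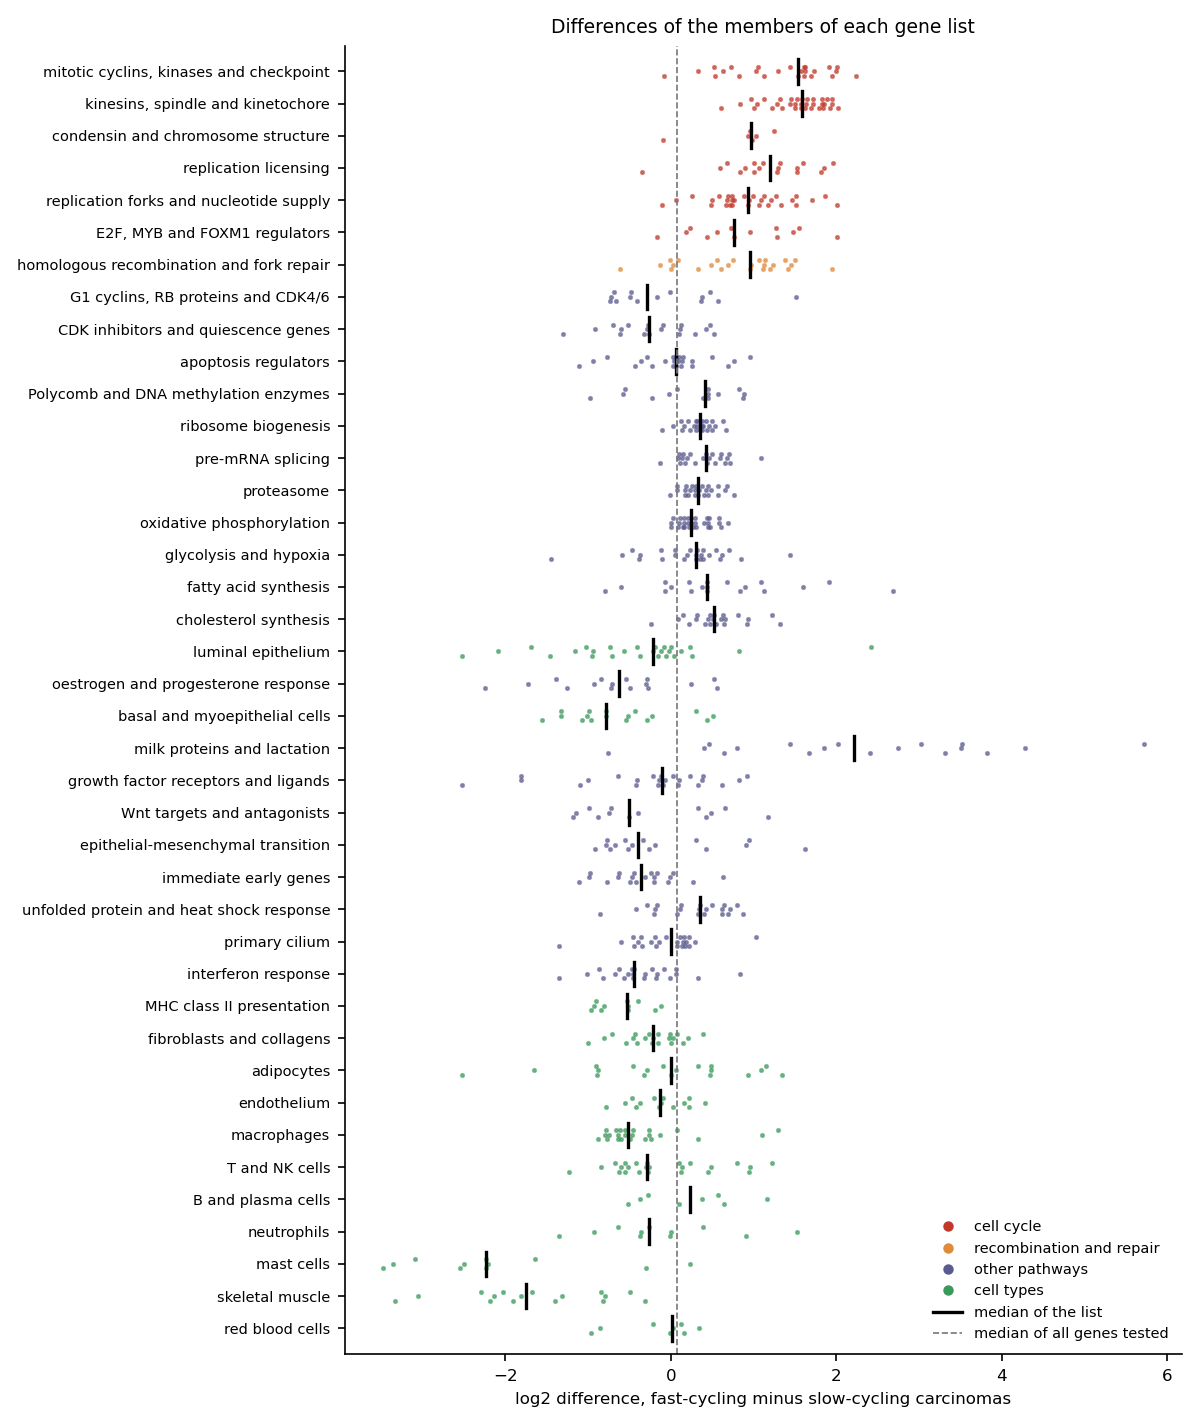
Each point is 1 tested gene of the list named on the left, placed by its log2 difference, fast-cycling minus slow-cycling carcinomas. Black bars are list medians and the dashed line is the median of all genes tested, 0.07; the 6 cell cycle lists have medians between 0.76 and 1.58, the milk list 2.22 and the mast cell list -2.24.

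Fewer genes were lower than higher without overlap in fast-cycling carcinomas, and among these 20 (0.159% of genes tested) Fgfr3 had the lowest p. Fgfr3, a receptor for fibroblast growth factors, had levels of -2.94, -2.30 and -0.90 in fast-cycling carcinomas, against -0.01, 0.31 and 1.31 in slow-cycling carcinomas and -2.97, -2.60 and -1.51 in normal glands. The groups did not overlap, and the difference of -2.52 ± 0.40 corresponds to a 5.73-fold lower level (adjusted p = 0.119). Normal glands lay near the fast-cycling carcinomas, and all 6 were below the slow-cycling ones. It held at -2.34 to -2.75 when each carcinoma was left out in turn and at -2.72 on scan day 1 alone, and a second Fgfr3 probe gave -1.86. Other FGF receptors gave no such separation, with -0.42 for Fgfr1, -1.10 for Fgfr2 and 0.10 for Fgfr4, whose probe was well above background on 4 fast-cycling and 3 slow-cycling arrays. In the list of growth factor receptors and ligands, 10 of 24 genes were above 0 and the median was -0.11, and Erbb4, a neuregulin receptor, stood at -1.81 ± 0.56 on a probe well above background on 4 of 6 fast-cycling arrays, or -0.54 with normexp.

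Dusp26, a dual-specificity phosphatase, had levels of -5.71, -5.36 and -4.46 in fast-cycling carcinomas, against -3.96, -2.97 and -1.77 in slow-cycling carcinomas and -1.75, -1.06 and 2.09 in normal glands. Here the fast-cycling carcinomas were farthest from the normal glands. Nbl1, a secreted antagonist of bone morphogenetic proteins, showed the same order, with -2.15, -1.17 and -0.68 in fast-cycling carcinomas, against -0.60, 0.23 and 1.94 in slow-cycling carcinomas and a normal gland median of 1.65. The differences were -2.39 ± 0.41 and -1.82 ± 0.44, and with normexp the Dusp26 difference was -0.96. Prrt1 (-1.52 ± 0.37, or -0.91 with normexp) and Zmynd15 (-1.22 ± 0.28) also did not overlap. A second Prrt1 probe gave -0.87.

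Smaller but even differences marked 3 regulators. Mnt, a repressor that pairs with Max in place of Myc, had levels of 1.72, 2.24 and 2.46 in fast-cycling carcinomas, against 2.68, 2.91 and 3.15 in slow-cycling carcinomas. Rarg, a retinoic acid receptor, stood at 2.22 to 2.71 in fast-cycling carcinomas, against 2.72 to 3.44 in slow-cycling carcinomas, so the groups barely separated. Baiap2, an adaptor between the membrane and actin, stood at 0.10, 0.45 and 0.64 in fast-cycling carcinomas, against 0.94, 1.28 and 1.51 in slow-cycling ones. Their differences were -0.73 ± 0.16, -0.67 ± 0.16 and -0.82 ± 0.16. A second Rarg probe gave -0.42.

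**Figure D4:**
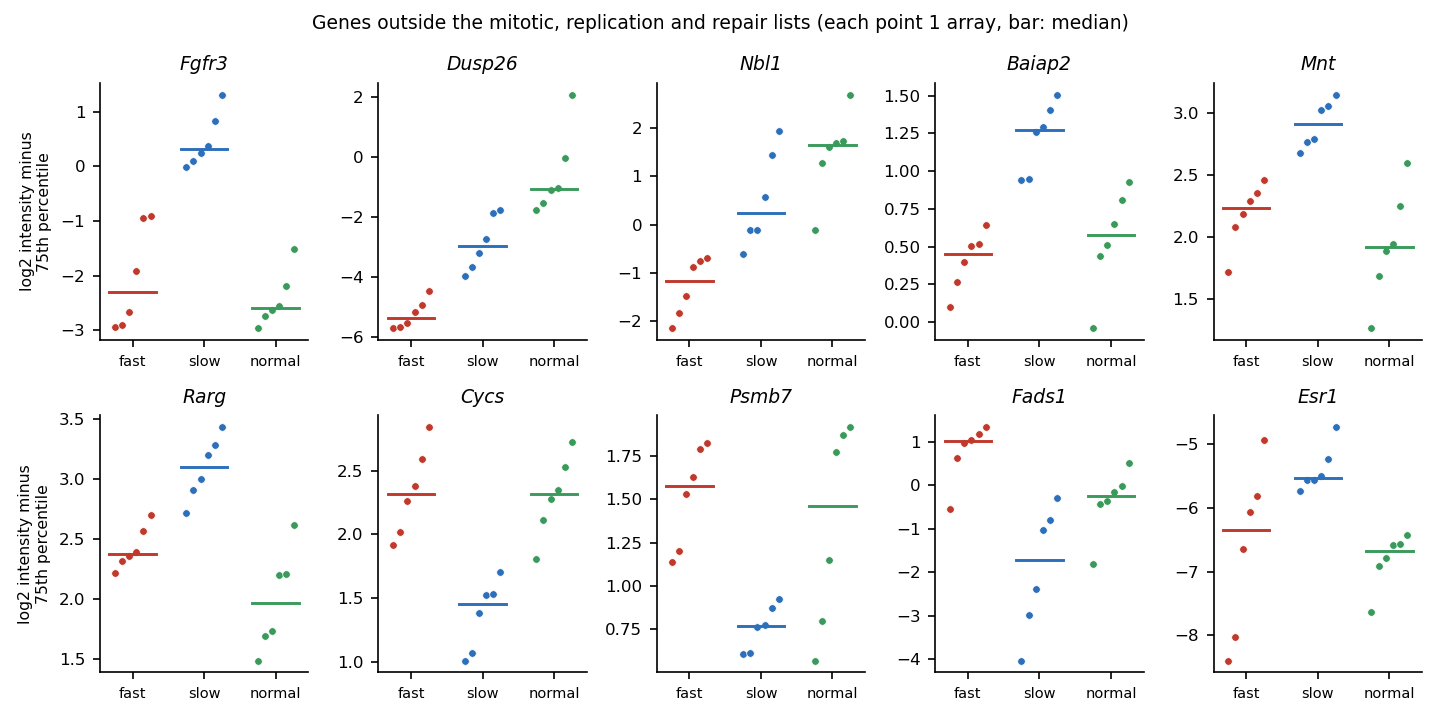
Log2 levels of 10 genes outside the mitotic, replication and repair lists, 1 point per array, with fast-cycling carcinomas, slow-cycling carcinomas and normal glands from left to right and a bar at the median. Fast-cycling values of Fgfr3 (-2.94 to -0.90) lie with the normal glands and below the slow-cycling values (-0.01 to 1.31), whereas for Dusp26 they are the farthest from the normal glands.

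Genes of the G1 machinery stood on both sides of 0. Cyclin D1 (Ccnd1), which opens G1, had levels of 1.66, 2.20 and 2.48 in fast-cycling carcinomas, against 0.58, 1.49 and 3.26 in slow-cycling carcinomas, a difference of 0.38 ± 0.43. Myc differed by 0.37 ± 0.34 and Rb1 by 0.47 ± 0.28, each with overlapping groups. On scan day 1 alone these were 0.05 and 0.10. Of 14 tested genes in the list of G1 cyclins, RB proteins and CDK4/6, 5 were above 0 and the median was -0.29, or 0.03 on scan day 1 alone and -0.07 without carcinoma 1. The highest was Mxd3 (1.52 ± 0.54, or 0.84 with normexp), a Max partner whose RNA is known to appear late in the cell cycle. Of other Max partners, Mxi1 (-0.73 ± 0.23), Mxd1 (-0.48) and Mnt stood lower. The Myc difference given above was -0.07 for the 4 highest against the 4 lowest carcinomas. Other Mxi1 probes gave -0.35 and -0.39.

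CDK inhibitors and quiescence genes had a median of -0.27 with 7 of 19 above 0, and the median was -0.07 without carcinoma 11. Txnip, a glucose-sensing brake on uptake, was the lowest at -1.31 ± 0.32, with 0.53, 1.71 and 2.26 in fast-cycling carcinomas, against 2.14, 2.84 and 3.72 in slow-cycling ones. Cdkn1b (-0.27 ± 0.24) and Cdkn1c (-0.27 ± 0.79) overlapped widely. The Cdkn1c difference was 0.74 on scan day 1 alone and 0.33 without carcinoma 7, and a second Cdkn1c probe gave 0.03. The Cdkn1a probes disagreed in sign, with 0.52 ± 0.30 for the brighter probe and -0.76 for the other. Cdkn2a gave 0.43 ± 0.78 and rested on carcinoma 2, without which it was -0.16.

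Growth and protein machinery stood slightly higher for most members. Of the ribosome biogenesis genes 24 of 25 were above 0 (median 0.35), of the splicing genes 22 of 23 (0.43), of the proteasome genes 24 of 25 (0.33) and of the oxidative phosphorylation genes 28 of 29 (0.25), beside 56.8% and 0.07 for all genes. In that order, 4.0%, 43.5%, 32.0% and 10.3% of them had an unadjusted limma p under 0.05, against 9.84% of all genes. Within slide 1 these medians were 0.59, 0.18, 0.49 and 0.04. Ribosome biogenesis levels overlapped, at -0.09 to 0.46 in fast-cycling and -0.53 to 0.21 in slow-cycling carcinomas. Splicing and oxidative phosphorylation levels overlapped as well. The proteasome subunit Psmb7 had levels of 1.14, 1.58 and 1.83 in fast-cycling carcinomas, against 0.61, 0.77 and 0.92 in slow-cycling carcinomas. It did not overlap, and neither did Psmb2 (0.57 ± 0.16). Cytochrome c (Cycs), carrier of electrons and trigger of apoptosis, stood at 1.92, 2.32 and 2.84 in fast-cycling carcinomas, against 1.01, 1.46 and 1.71 in slow-cycling ones, and normal glands at 1.81 to 2.72 matched the fast-cycling range. Its difference was 0.96 ± 0.20, and a second probe gave 0.70. Of the Polycomb and DNA methylation genes 9 of 14 were above 0 (median 0.42), and 7 of 14 on scan day 1 alone (median 0.01). The histone methyltransferase Ezh2, of this list, differed by 0.87 ± 0.25. Ezh2 kept close to the score (r = 0.92) and was the only 1 of the 14 called in the fit on it.

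Lipid genes leaned higher, with 21 of 22 cholesterol synthesis genes above 0 (median 0.52) and 15 of 19 fatty acid synthesis genes (0.44). Fads1, a desaturase of long polyunsaturated fatty acids, had levels of -0.55, 1.01 and 1.34 in fast-cycling carcinomas, against -4.04, -1.71 and -0.28 in slow-cycling carcinomas, a difference of 2.69 ± 0.59 with 1 slow-cycling carcinoma inside the fast-cycling range. Fads2, its neighbour in the pathway, differed by 1.92 ± 0.50, and Dhcr7, of the last step to cholesterol, by 1.22 ± 0.36. On scan day 1 alone the fatty acid median was 0.13 with 12 of 19 above 0, while Fads1 was 2.87. Within slide 1 the fatty acid and cholesterol medians were -0.31 and -0.02. Leaving out carcinoma 3 gave a fatty acid median of 0.78, and leaving out carcinoma 10 a cholesterol median of 0.32. Glycolysis and hypoxia genes had a median of 0.31, which was 0.06 without carcinoma 2.

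Milk genes had the highest median difference of the lists, 2.22, with 17 of 18 tested genes above 0, and their levels varied widely within each group. The mean level of the list was -0.93, 1.23 and 3.21 at its lowest, median and highest in fast-cycling carcinomas, against -5.35, -0.60 and 1.32 in slow-cycling carcinomas and a median of 2.61 in normal glands. The groups overlapped. Carcinomas 7 (3.21) and 11 (2.25) were highest and carcinomas 5 (-5.35) and 8 (-3.21) lowest, and the median was 1.26 without carcinomas 7 and 11 and 1.42 without carcinoma 5. Csn2, beta-casein, ranged from 1.33 to 9.10 in fast-cycling carcinomas, against -8.59 to 7.23 in slow-cycling carcinomas, a difference of 5.72 ± 2.86 (adjusted p = 0.53). Across the 13 carcinomas the median r of the list's genes with the score was 0.12. Elf5, the regulator of the secretory lineage, differed by 2.43 ± 1.13, by 1.44 in the lowest of the fits that left out 1 carcinoma, and by -0.12 when groups were remade from all cell cycle genes.

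Luminal, hormone response and basal genes had medians below 0. Of the luminal list 7 of 27 genes were above 0 (median -0.21, or -0.10 without carcinoma 2 and -0.44 without carcinoma 9), of the oestrogen and progesterone response list 3 of 16 (-0.63) and of the basal and myoepithelial list 3 of 17 (-0.78). The basal value rested on carcinoma 7, whose list level was -2.90 while the other fast-cycling carcinomas lay between -0.24 and 0.42 and the slow-cycling ones between -0.13 and 0.82. Without it the basal median was -0.25, and the hormone response median -0.35. On scan day 1 alone the medians were -0.50 for luminal, -0.38 for hormone response and -0.05 for basal genes, of which 8 of 17 were above 0, and the basal median was 0.05 within slide 1 and 0.19 within slide 3. Esr1, the oestrogen receptor, stood at -8.40, -6.35 and -4.94 in fast-cycling carcinomas, against -5.75, -5.53 and -4.73 in slow-cycling ones, on a probe well above background on 2 of the fast-cycling and all 6 slow-cycling arrays (difference -1.26 ± 0.54). With normexp its sign turned, to 0.07. Pgr (-0.73 ± 0.87, or -0.14 with normexp) and Erbb2 (-0.21 ± 0.25) overlapped. Claudin 4 (Cldn4), a tight junction protein, was -1.16 ± 0.37.

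Stromal and immune lists had medians within 1 log2 unit of 0, apart from mast cells. Fibroblast and collagen genes had a median of -0.22, which was 0.47 on scan day 1 alone and 0.12 without carcinoma 8. Endothelial genes stood at -0.13 (0.16 on scan day 1 alone, -0.40 without carcinoma 2 and -0.01 without carcinoma 11). Macrophage genes stood at -0.52 (0.67 within slide 1, -1.58 within slide 3 and -0.64 on scan day 1 alone). T and NK cell genes were at -0.28 (0.02 without carcinoma 8) and MHC class II genes at -0.54 with 0 of 11 above 0. Macrophage list levels ran from -1.29 to 1.00 in fast-cycling carcinomas, against -0.67 to 1.12 in slow-cycling carcinomas, and their median difference was -0.25 without carcinoma 11. MHC class II levels ran from -0.87 to 0.53 against -0.42 to 1.88, and their median was -0.25 without carcinoma 8. Mast cell genes had a median of -2.24 with 10 of 11 below 0. Their list level was -3.93, -1.61 and 1.95 in fast-cycling carcinomas, against -1.85, 2.12 and 2.82 in slow-cycling ones, with 4 of 6 fast-cycling carcinomas and 2 of 6 slow-cycling ones below 0. The mast cell median was -1.06 without carcinomas 7 and 11 and -3.90 on scan day 1 alone. The proteases Cma1 (-3.48 ± 1.86) and Tpsb2 were among them.

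Skeletal muscle genes were below 0 in 16 of 16, with a median of -1.75. List levels ran from -1.81 to -0.24 in fast-cycling carcinomas, against 2.57, 2.60 and 2.83 in slow-cycling carcinomas 5, 8 and 12 and -1.36 to -0.52 in the other 3, so 3 slow-cycling carcinomas carried the difference. Normal glands ranged from -1.11 to 7.36. Ckm, muscle creatine kinase, differed by -2.30 ± 0.82, or -1.49 with normexp. The list median was then -0.93. Among adipocyte genes the median was 0.00, with members on both sides: Adipoq, adiponectin, stood at -2.53 ± 0.61, well above background on 2 fast-cycling and 6 slow-cycling arrays, and Cidec, a lipid droplet protein, at 1.15 ± 0.42. With normexp these were -0.54 and 0.59. The part of admixed tissue in these differences was not tested.

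**Figure D5:**
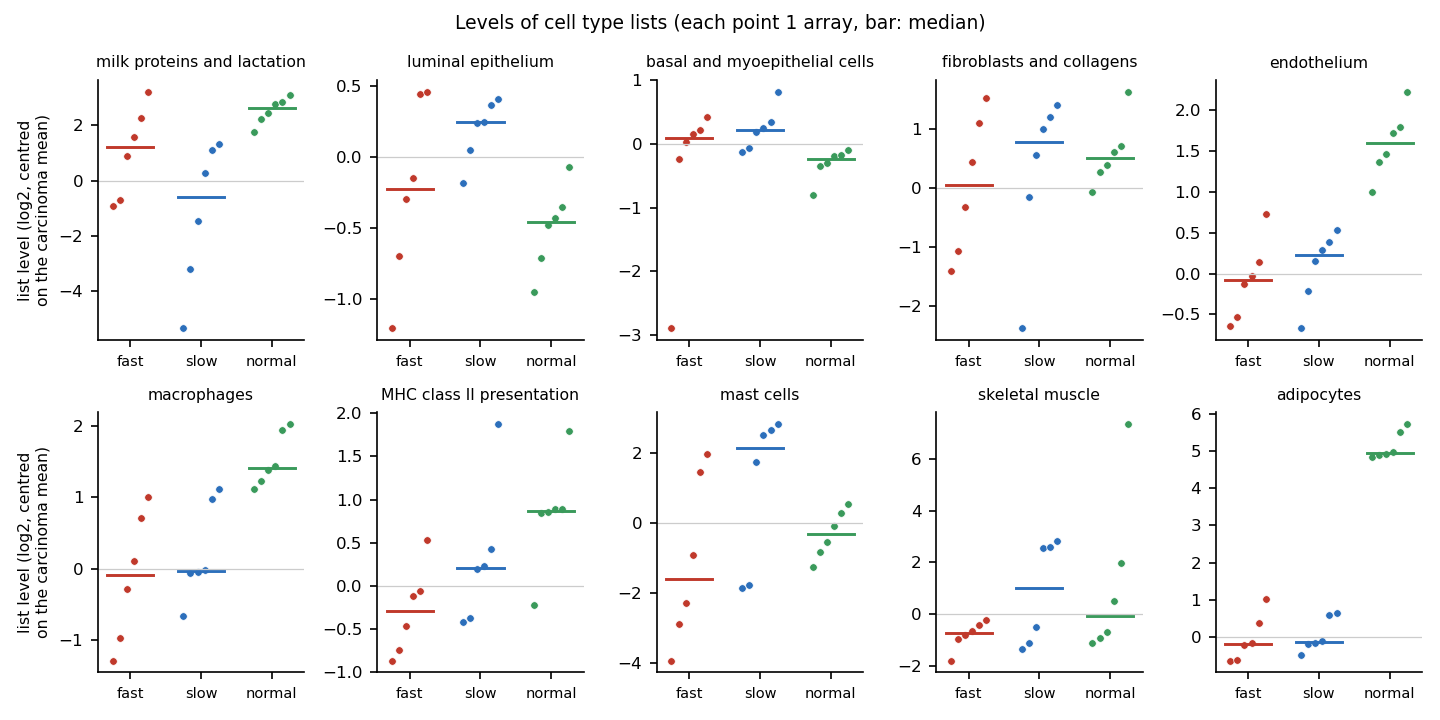
Mean level of 10 gene lists per array (log2, each gene centred on its carcinoma mean), with fast-cycling carcinomas, slow-cycling carcinomas and normal glands from left to right and a bar at the median. Muscle levels are at or below -0.24 in all 6 fast-cycling carcinomas and above 2.5 in 3 of 6 slow-cycling ones, and carcinoma 7 stands alone at -2.90 in the basal list.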

How the data were processed

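RNA of 13 carcinomas and 6 normal glands was measured on Agilent single-colour arrays, with Agilent Feature Extraction 10.7.3.1 as the scanner software, per the submitters' processing notes. Per the file headers, the deposited intensity of a spot had its background subtracted and was detrended, and spots carry flags. A series table deposited by the authors holds log2 values of the same arrays: over 30367 probes it followed the scanner values (lowest Pearson r per array 0.998), with a median shift of 0.43 to 0.54 and column medians of -3.25 to -2.75. The scaling step behind it is not given in the sources used here. Here log2 intensities were reduced by the array's 75th percentile over 58717 spots without controls, marked spots were set missing, and spots of a probe were averaged. Symbols came from RefSeq accessions, giving 18005 probes for 15168 symbols, and each gene was read from its probe with the highest mean over the carcinomas. Genes well above background (at least 0.5 of spots) on at least 6 of 13 carcinomas were kept.

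Groups followed the score of 6 genes, which were left out of the test. limma 3.58.1 in R 4.3.3 compared 6 with 6 carcinomas, 2-sided, with moderated variances following mean intensity and Benjamini-Hochberg adjustment over 12592 genes, and was tested on simulated data. Normal glands were not in the fit. The normexp alternative used the files' median signals in place of the mean signals first intended. Members, lists and the rule for named genes were chosen with earlier results of these data known. The rule took up to 10 non-overlapping differences per direction, largest first, among the 100 smallest p-values outside cell cycle and repair lists, the genes most and least like the score, and a fixed set of cell cycle and mammary genes. Since no gene passed, these are given as values, and list examples were taken after their values were seen. Mki67 and Top2a were not analysed here. Some other genes of the fixed set and 1 list are not reported here. Array measures were compared by exact permutation over all splits, where the smallest possible p is 0.0022.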

Additional observations from a re-analysis of the deposited data

Results flagged for a closer look

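Among 182 sets of 6 values, one for each group of carcinomas and each gene or list examined, 9 held a value far from the other 5, and chance alone gives about 1 in 20. In fast-cycling carcinomas, Cdkn2a stood at 2.76 in carcinoma 2, with -0.12 as the next highest. Carcinoma 9 was highest in the splicing list at 0.51, next to 0.19. Carcinoma 7 was lowest in the basal and myoepithelial list at -2.90, next to -0.24, and carcinoma 10 highest in the B and plasma cell list at 1.73, next to 0.04.

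In slow-cycling carcinomas, carcinoma 5 was highest in the splicing list at 0.0678, next to -0.18, and lowest in the growth factor receptor and ligand list at -0.59, next to 0.16. Carcinoma 13 was highest in the glycolysis and hypoxia list at 0.56, next to -0.03. Carcinoma 1 was highest in the Wnt list at 1.20, next to 0.13, and carcinoma 8 highest in the MHC class II list at 1.88, next to 0.43. Each list value is a mean of centred log2 levels.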

How the results depend on the processing

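The counts of 0 higher and 0 lower genes held under quantile normalization, normexp background correction, marked spots kept, either filter on dim probes, the mean of all probes, the deposited table, slide, scan day or code letter as a block, number-coded carcinomas alone, scan day 1 alone, within slides 1 and 3, brightness or the luminal list level as a covariate, without carcinomas 7 and 11, and groups remade from other scores. They moved to 140 higher and 2 lower with the score as a continuous term over 13 carcinomas, to 40 and 4 for the 4 highest against the 4 lowest, and to 61 and 5 for the 5 highest against the 5 lowest, a setting chosen, like scan day 1 alone and the omission of carcinomas 7 and 11, after seeing the data. Leaving out each carcinoma in turn gave 0 to 23 higher and 0 to 3 lower, with 23 and 3 reached without carcinoma 5 and 0 otherwise. The brightness difference of -0.36 ranged from -0.49 to -0.17, and its exact permutation p was 0.0368 without carcinoma 11. Normexp moved the median of all genes to 0.16. The composition of the groups was the same 12 carcinomas under each scaling tried. Of 170 named genes, 42 changed sign under some setting, and none of the 18 chosen as the largest non-overlapping differences did. For these 18 the lack of overlap fixes the sign in fits without covariates on part of the same 2 groups, so those settings could not change it. Within-slide fits had 1 against 3 and 2 against 3 carcinomas, where a lone sample is assumed to vary like the others. No paired analysis was possible because both groups lie within the carcinomas, whose replicate numbers are each used once. Dim probes limit what can be said of genes near background.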

Other observations

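Of all genes tested, 92 (0.731%) stood higher without overlap, and 69 of them were in no cell cycle or repair list. The following were chosen after their values were seen. The exosome subunit Exosc2 differed by 0.83, the nuclear pore subunit Nup107 by 1.06 and Ranbp1, a regulator of the Ran transport cycle, by 0.71. Srd5a1, which reduces testosterone and progesterone, differed by 1.38, the peroxidase Prdx1 by 1.07 and the zinc transporter Slc30a4 by 1.76. On the lower side stood the retinoid X receptor Rxrb (-0.36) and Anapc2 (-0.33), a core subunit of the ligase that Cdc20 activates. Anapc10, another subunit of that ligase, stood higher without overlap, by 0.53.

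Carcinoma 4, which belongs to neither group, had a score of 0.03. Its Fgfr3 level of -0.59 lay between the groups, and its Dusp26 level of -5.15 lay in the fast-cycling range. Primary cilium genes had a median difference of 0.01 with 12 of 24 above 0, and unfolded protein and heat shock genes 0.35 with 16 of 22 above 0.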
